A study of Gallus gallus with 16 samples.

Results

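The levels of 10 genes that carry dietary lipid through the absorptive cell of the intestine, from uptake at the cell surface to the release of lipoprotein particles, were measured as RNA in chicken duodenum. They are CD36, SLC27A4 and SCARB1 (uptake), DGAT2 and PLIN2 (triglyceride synthesis and storage), MTTP, APOB, APOA1 and APOA4 (particle assembly), and SAR1B (export). The genes were chosen by name from this pathway, with the values of the comparison between the bird lines already known (MTTP and PLIN2 had been named for theirs), and every probe set to which the platform annotation gives 1 of these 10 symbols and no other was taken. All 10 genes were on the array, with 24 of the 38439 probe sets and 10 of the 13009 named genes. APOB had 7 probe sets, SCARB1 had 1, and each of the other 8 genes had 2. Probe sets of a gene are numbered here from the highest mean level to the lowest.

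The birds came from a population selected in opposite directions for residual feed intake, the feed eaten beyond what body weight and growth predict. LRFI is the low line, whose birds eat less for the same growth, and HRFI is the high line. Duodenum, the first stretch of the small intestine, was measured on 16 one-colour Affymetrix arrays. There were 4 arrays each for LRFI at day 42, HRFI at day 42, LRFI at day 35 and HRFI at day 35. No treatment or genotype beyond the line is given, nor is the sex of the birds. Each line is 1 population, so selection and drift cannot be told apart between them. Nothing in the labels states that each array is a bird of its own. The p-values below thus reflect array-to-array spread, some of which may be technical.

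In the absorptive cell, or enterocyte, fatty acids and monoglycerides are rebuilt into triglyceride at the endoplasmic reticulum. Part of the triglyceride is kept in cytoplasmic droplets, and part is loaded by the transfer protein MTTP onto apolipoprotein B as that protein is made. The particle gains further apolipoproteins, leaves the endoplasmic reticulum in vesicles that need the GTPase SAR1B, and is secreted. In birds these particles are called portomicrons, because they enter the portal blood rather than the lymph.

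Levels are on a log2 scale, on which a difference of 1 is a 2-fold difference, and they were used as deposited. A level on 1 probe set cannot be set against the level on another, since probes bind with different strength. Differences between the lines are LRFI minus HRFI, and differences between ages are day 42 minus day 35. The ± values are SD over 4 arrays unless another n is given, and a standard error (SE) is that of the difference in a limma fit to all 16 arrays. A probe set passed when its limma p, adjusted by Benjamini-Hochberg over all 38439 probe sets, was under 0.05. Precision is limited by the 4 arrays in each group, since an array has no read depth.

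Some arrays stood apart. Of 10 listed enterocyte genes, 9 were measured. EPCAM, KRT20, SI, ANPEP and VIL1 averaged between 12.18 and 13.63, CDHR2 11.45, FABP2 11.36, TMPRSS15 9.82 and CDHR5 5.7. The mean of the 9 lay between 11.08 and 11.80 on all 16 arrays. RNA of the pancreas, as the mean level of 12 of its enzyme genes, reached 13.91 in HRFI day 35 replicate 3 and 11.32 in LRFI day 42 replicate 2, while the remaining 14 arrays had 4.63 to 5.64. The mean of 9 hepatocyte genes was 9.16 on LRFI day 42 replicate 2 and 8.31 on HRFI day 35 replicate 1. At day 42 it lay between 6.04 and 9.16 in LRFI and between 5.38 and 5.78 in HRFI, without overlap. The mean of the 3 measured erythrocyte genes of 7 listed lay between 7.70 and 9.70 in LRFI and between 7.87 and 8.75 in HRFI at day 42, and between 9.43 and 10.7 in LRFI and between 8.45 and 9.55 in HRFI at day 35. The 3′ minus 5′ difference of the actin control probe sets, which grows when RNA is degraded or copied short, was above 1 on 5 arrays (LRFI day 35 replicates 3 and 4, HRFI day 35 replicates 2 and 3, HRFI day 42 replicate 4) and between 0.19 and 0.50 on the others. In whole tissue, fewer cells of a type and less RNA per cell cannot be told apart.

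**Figure D1:**
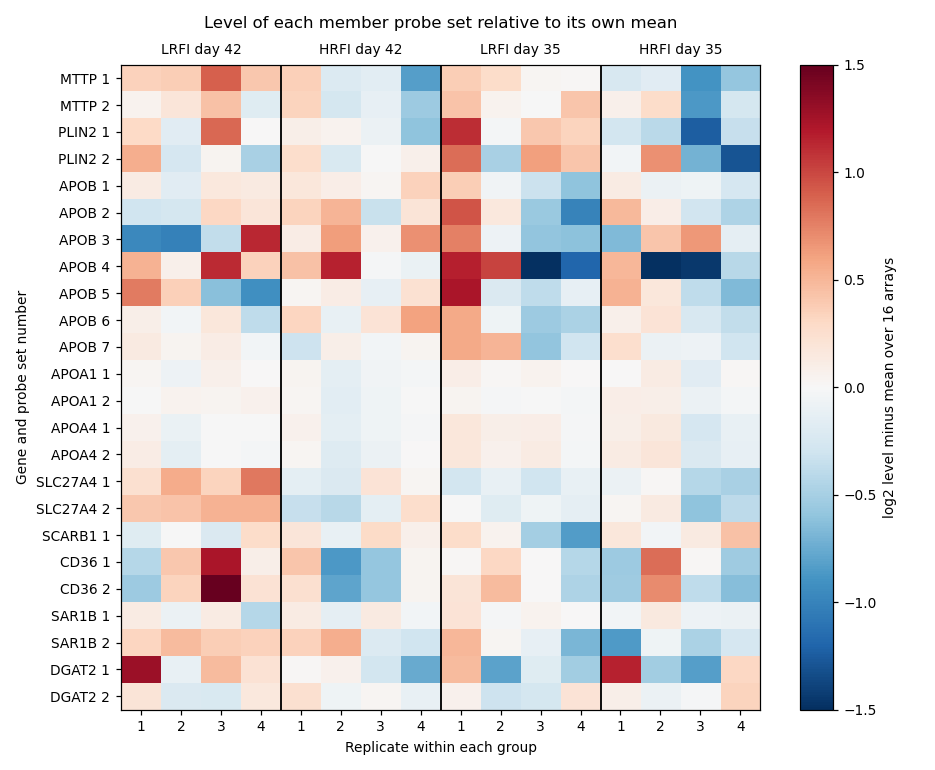
Level of each of the 24 probe sets (rows, by gene and probe set number) on each of the 16 arrays (columns, replicates 1 to 4 within each group), as log2 level minus the mean of that probe set over the 16 arrays; red is above the mean and blue below it, and values beyond 1.5 in either direction are drawn at the end of the scale. MTTP and probe set 1 of PLIN2 are mostly red in LRFI, SLC27A4 is red on the 4 LRFI day 42 arrays, and APOB probe set 4 has the deepest blue fields among the APOB probe sets.

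The genes of lipid uptake came first along the path, and among them SLC27A4 stood out on the LRFI arrays of day 42. SLC27A4, also called FATP4, is a fatty acid transport protein with acyl-CoA synthetase activity and is the main member of its family in the mammalian small intestine. Its probe set 1 read 9.45, 9.77, 9.55 and 10 in LRFI at day 42, against 9.06, 8.99, 9.42 and 9.24 in HRFI at day 42. At day 35 it read 8.94, 9.10, 8.91 and 9.10 in LRFI, against 9.12, 9.23, 8.78 and 8.73 in HRFI. Each LRFI day 42 array lay above all 12 others, while the other 3 groups overlapped.

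Probe set 2 of SLC27A4 was likewise highest in LRFI at day 42, while the order of the other groups differed. It read 8.26, 8.29, 8.38 and 8.38 in LRFI at day 42, against 7.51, 7.44, 7.71 and 8.12 in HRFI at day 42. The day 35 readings were 7.85, 7.68, 7.79 and 7.72 in LRFI, against 7.89, 7.99, 7.25 and 7.46 in HRFI. Again the 4 LRFI day 42 arrays lay above the other 12, a pattern that 0.114% of all probe sets had. The line difference at day 42 was 0.52 (SE 0.14) on probe set 1 and 0.63 (SE 0.16) on probe set 2, and at day 35 it was 0.05 (SE 0.14) and 0.11 (SE 0.16). At day 42 the hepatocyte mean was also higher in LRFI than in HRFI, with the ranges given above. With that mean as a covariate, an alternative chosen after seeing the data, the day 42 line differences were 0.40 and 0.52. Without the 2 arrays on which hepatocyte genes were highest they were 0.49 and 0.65.

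CD36, a scavenger receptor that binds long-chain fatty acids, varied more between arrays of a group than between groups. Probe set 1 read 9.87, 10.70, 11.52 and 10.39 in LRFI at day 42, against 10.72, 9.44, 9.72 and 10.34 in HRFI at day 42. Day 35 gave 10.32, 10.61, 10.31 and 9.87 in LRFI, against 9.76, 11.14, 10.32 and 9.77 in HRFI. The 4 groups overlapped. LRFI day 42 replicate 3 was the highest array on both probe sets, at 11.52 and 10.93. The line difference averaged over both ages was 0.30 (SE 0.26) on probe set 1 and 0.48 (SE 0.28) on probe set 2. Without that 1 array the values were 0.15 and 0.27, and without the 5 arrays of high actin difference they were 0.68 and 0.86. With the erythrocyte mean as a covariate, likewise chosen after seeing the data, they were 0.58 and 0.77.

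SCARB1, the scavenger receptor that takes up cholesterol from lipoproteins and, in mammalian intestine, helps to take up sterols and carotenoids, was the uptake gene with a lower mean in LRFI. It averaged 10.93 ± 0.22 in LRFI and 11.07 ± 0.17 in HRFI at day 42, and 10.72 ± 0.51 in LRFI and 11.14 ± 0.20 in HRFI at day 35. The lowest readings were 10.13 and 10.46, on LRFI day 35 replicates 4 and 3, both with an actin difference above 1. At day 35 the line difference was −0.42 (SE 0.20). Among the 4 arrays of that day with an actin difference of at most 1 it was −0.13, and among the 4 above 1 it was −0.71, with 2 arrays of each line in either set.

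**Figure D2:**
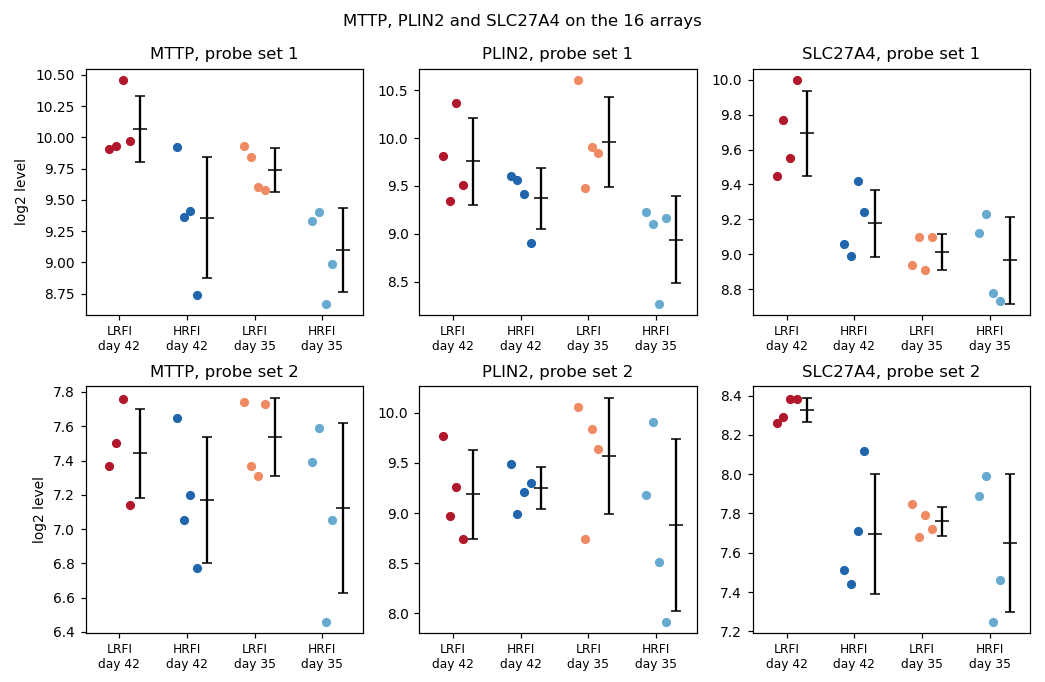
Log2 level (vertical axis) of both probe sets of MTTP, PLIN2 and SLC27A4 on each array, with the groups in the order LRFI day 42, HRFI day 42, LRFI day 35 and HRFI day 35; points are replicates 1 to 4 from left to right, and the bar beside them is the mean with SD (n = 4). Each panel has its own vertical scale. All 4 LRFI day 42 points of SLC27A4 lie above the other 12 on both probe sets, and on probe set 1 the LRFI points of MTTP and PLIN2 at day 35 lie above those of HRFI.

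DGAT2 adds the third fatty acid to diacylglycerol and so completes triglyceride. Its probe set 1 averaged 7.56 ± 0.59 in LRFI and 6.86 ± 0.37 in HRFI at day 42, and 6.83 ± 0.55 in LRFI and 7.12 ± 0.89 in HRFI at day 35. The line difference was 0.70 (SE 0.39) at day 42 and −0.29 (SE 0.39) at day 35, of opposite sign. The highest readings were 8.37 on LRFI day 42 replicate 1 and 8.24 on HRFI day 35 replicate 1. Without LRFI day 42 replicate 1 the day 42 difference was 0.43. The day 35 difference was 0.09 without HRFI day 35 replicate 1, −0.57 without HRFI day 35 replicate 3, −0.90 without the arrays of high actin difference and −0.93 with the erythrocyte mean as a covariate. Probe set 2, by contrast, kept within 6.00 to 6.65 on all arrays, with line differences of −0.04 (SE 0.14) at day 42 and −0.15 (SE 0.14) at day 35.

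PLIN2, or adipophilin, coats the cytoplasmic droplets in which triglyceride is held. Probe set 1 read 9.81, 9.34, 10.37 and 9.51 in LRFI at day 42, against 9.60, 9.56, 9.42 and 8.90 in HRFI at day 42. Its day 35 levels were 10.61, 9.48, 9.91 and 9.84 in LRFI, against 9.23, 9.10, 8.27 and 9.16 in HRFI. The lines overlapped at day 42 and did not overlap at day 35, where the lowest LRFI array lay above the highest HRFI array.

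Over both ages PLIN2 probe set 1 averaged 9.86 ± 0.44 in LRFI and 9.15 ± 0.43 in HRFI (SD, n = 8 each), a difference of 0.70 (SE 0.19). At day 42 the difference was 0.39 (SE 0.27), and it was 0.19 without LRFI day 42 replicate 3 and 0.23 without the arrays of high actin difference. At day 35 it was 1.02 (SE 0.27). HRFI day 35 replicate 3, with 8.27 the lowest of all, was the array with the most pancreatic enzyme RNA and an actin difference of 2.07. Without that array the day 35 difference was 0.80, and within the arrays of low and of high actin difference it was 0.85 and 1.19. The erythrocyte mean was also higher in LRFI than in HRFI at day 35, apart from a slight overlap. With it as a covariate the line difference was 0.35 at day 42, 0.82 at day 35 and 0.58 on average.

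Probe set 2 of PLIN2 followed the first only in part. It read 9.77, 8.97, 9.26 and 8.74 in LRFI at day 42, against 9.49, 8.99, 9.21 and 9.30 in HRFI at day 42. For day 35 the readings were 10.06, 8.74, 9.84 and 9.64 in LRFI, against 9.18, 9.91, 8.51 and 7.92 in HRFI. The lines overlapped at both ages. The line difference was −0.07 (SE 0.36) at day 42 and 0.69 (SE 0.36) at day 35. Single arrays moved the day 35 value: it was 0.37 without HRFI day 35 replicate 4 and 1.03 without HRFI day 35 replicate 2. The average over both ages was 0.31 (SE 0.25), and 0.15 without HRFI day 35 replicate 4. With group means removed, the 2 probe sets of PLIN2 correlated at r = 0.42 over the 16 arrays (permutation p = 0.176).

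PLIN2 lies on the chicken Z chromosome, of which males carry a pair and females a single copy with only partial compensation, and the labels do not give the sex of the birds. The 2 probe sets of HINTW, a gene of the female W chromosome, read 3.62 to 3.94 and 3.88 to 4.59 on all 16 arrays, and no array stood apart on them. These are dim readings, below the array medians of 5.05 to 5.11. Whether the 2 probe sets respond to RNA of females was not tested, so they do not settle the sex of the birds.

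MTTP, the microsomal triglyceride transfer protein, is essential for loading lipid onto apolipoprotein B. Probe set 1 read 9.91, 9.93, 10.46 and 9.97 in LRFI at day 42, against 9.92, 9.36, 9.41 and 8.74 in HRFI at day 42. At day 35 it read 9.93, 9.84, 9.60 and 9.58 in LRFI, against 9.33, 9.40, 8.67 and 8.99 in HRFI. The lines did not overlap at day 35, and at day 42 they overlapped through HRFI replicate 1 alone, whose 9.92 lay above 1 LRFI array.

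Over both ages MTTP probe set 1 averaged 9.90 ± 0.27 in LRFI and 9.23 ± 0.41 in HRFI (SD, n = 8 each). Each of the 8 LRFI arrays exceeded the mean of HRFI. The line difference was 0.71 (SE 0.21) at day 42, 0.64 (SE 0.21) at day 35 and 0.68 (SE 0.15) on average. Leaving out each array in turn gave averages from 0.57 to 0.77. The day 42 difference then ran from 0.505 to 0.897. That of day 35 ran from 0.498, without HRFI day 35 replicate 3, to 0.742. With the hepatocyte mean as a covariate the average was 0.63, with the enterocyte mean it was 0.59, with the erythrocyte mean it was 0.64, and without the 5 arrays of high actin difference it was 0.62. The day 42 difference was 0.557 with the hepatocyte mean as a covariate. Within the day 35 arrays of low and of high actin difference the line difference was 0.73 and 0.56.

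Probe set 2 of MTTP showed a smaller difference in the same direction. It averaged 7.44 ± 0.26 in LRFI and 7.17 ± 0.37 in HRFI at day 42, and 7.54 ± 0.23 in LRFI and 7.12 ± 0.50 in HRFI at day 35, with overlap at both ages. The line difference was 0.27 (SE 0.22) at day 42 and 0.41 (SE 0.22) at day 35. At day 42 it was 0.14 without HRFI day 42 replicate 4, 0.44 without HRFI day 42 replicate 1 and 0.04 with the hepatocyte mean as a covariate. At day 35 it was 0.19 without HRFI day 35 replicate 3. The 2 probe sets of MTTP correlated at r = 0.84 with group means removed (Spearman rho = 0.77, permutation p = 0.00075 for r, adjusted p = 0.00725 over 29 pairs of probe sets of 1 gene), and r was 0.80 without the 2 farthest arrays. The 2 farthest arrays, here and below, are those farthest from the median on the first-named gene or lower-numbered probe set, group means removed.

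APOB, the structural protein of the particle, had 7 probe sets whose line differences did not share a sign. Line differences averaged over both ages ran from −0.44 (SE 0.30) on probe set 3 to 0.36 (SE 0.41) on probe set 4, with 4 of 7 below 0. Probe set 1 varied least between arrays and averaged 12.78 ± 0.16 in LRFI and 12.87 ± 0.14 in HRFI at day 42, and 12.56 ± 0.41 in LRFI and 12.64 ± 0.15 in HRFI at day 35. At day 35 probe sets 1, 2, 3, 5, 6 and 7 had a positive line difference among the arrays of low actin difference (0.22 to 0.73) and a negative one among those of high actin difference (−0.15 to −1.15). With group means removed, 20 of the 21 pairs among the 7 correlated above 0. Probe sets 1 and 2 had the highest, r = 0.88 (permutation p = 0.00187, adjusted p = 0.0136 over 29 pairs of probe sets of 1 gene) and rho = 0.76, with r = 0.69 without the 2 farthest arrays, and this was the 1 APOB pair with an adjusted p under 0.05. The pairs of probe set 3 were the weakest as a set, at −0.21 to 0.48.

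Probe set 4 of APOB moved most. It read 8.54, 8.09, 9.14 and 8.36 in LRFI at day 42, against 8.45, 9.17, 8.0 and 7.92 in HRFI at day 42. Its readings at day 35 were 9.18, 9.03, 6.40 and 6.83 in LRFI, against 8.51, 6.46, 6.57 and 7.60 in HRFI. The 4 readings under 7 were all from arrays with an actin difference above 1. Over the 16 arrays, with group means removed, this probe set correlated with the actin difference at r = −0.83 (permutation p = 0.00724, adjusted p = 0.174 over the 24 probe sets) and rho = −0.90 (permutation p = 0.00154, adjusted p = 0.037). Without the 2 arrays farthest from the median in the actin difference r was −0.80. The part of RNA quality in it was not tested further.

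**Figure D3:**
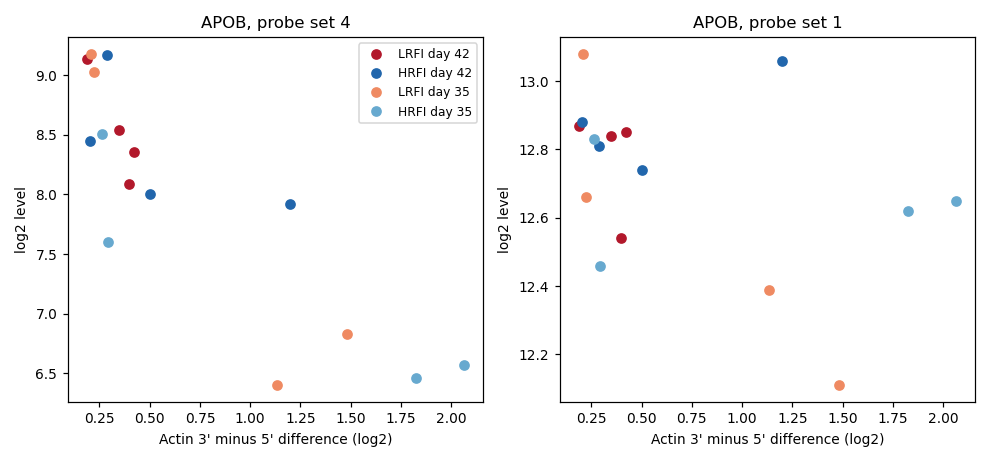
Log2 level of APOB probe set 4 (left panel) and probe set 1 (right panel) against the actin 3′ minus 5′ difference of the same array (horizontal axis, log2), 1 point per array, coloured by group. On probe set 4 the 4 readings under 7 are all from arrays with an actin difference above 1. On probe set 1 the 5 such arrays include the lowest readings, 12.11 and 12.39 (LRFI day 35 replicates 4 and 3). The highest of the 5, HRFI day 42 replicate 4, reads 13.06.

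APOA1 and APOA4, the small apolipoproteins of the particle surface, read near the top of the arrays' range. APOA1 lay between 14.29 and 14.67 and APOA4 between 14.19 and 14.67, where the highest value of any probe set was 14.75. A probe set this close to the top has little room to read higher, and differences there may be compressed. The line differences averaged over both ages were 0.06 (SE 0.05) and 0.03 (SE 0.05) for APOA1, and 0.07 (SE 0.06) and 0.07 (SE 0.07) for APOA4.

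SAR1B, the GTPase that starts the vesicle coat on the endoplasmic reticulum and that human chylomicron secretion needs, had 1 even and 1 variable probe set. Probe set 1 lay between 12.16 and 12.79 on all arrays, with an average line difference of −0.01 (SE 0.08). Probe set 2 read 8.74, 8.89, 8.79 and 8.77 in LRFI at day 42, against 8.77, 8.97, 8.22 and 8.12 in HRFI at day 42. Day 35 readings were 8.92, 8.45, 8.30 and 7.73 in LRFI, against 7.57, 8.36, 7.95 and 8.17 in HRFI. The lines overlapped at both ages, and the average line difference was 0.31 (SE 0.16). It was 0.48 without the arrays of high actin difference and 0.20 with the enterocyte mean as a covariate. The 2 probe sets correlated at r = 0.16 with group means removed (permutation p = 0.438).

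The first comparison the design implies is that of the lines, and the genes were chosen with its results known, so the following counts are given as a description. No member probe set passed in the line comparison averaged over both ages, in which 0.0% of all probe sets passed. The same held at day 42, where 0.0026% of all probe sets passed, and at day 35, where 0.0% did. At an unadjusted limma p under 0.05 the members numbered 5 on average (5.48% of all probe sets), 3 at day 42 (5.57%) and 3 at day 35 (6.66%). With unmoderated statistics of the same model these counts were 4, 3 and 2, and none passed after adjustment.

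Of the 24 probe sets, 17 had a positive average difference, against 44.8% of all probe sets, and their median was 0.09 against −0.01 over all. At day 42 the LRFI arrays lay above the HRFI arrays without overlap on 2 probe sets, both of SLC27A4, as on 1.74% of all probe sets. At day 35 they did so on probe set 1 of MTTP and of PLIN2, as on 0.994% of all.

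**Figure D4:**
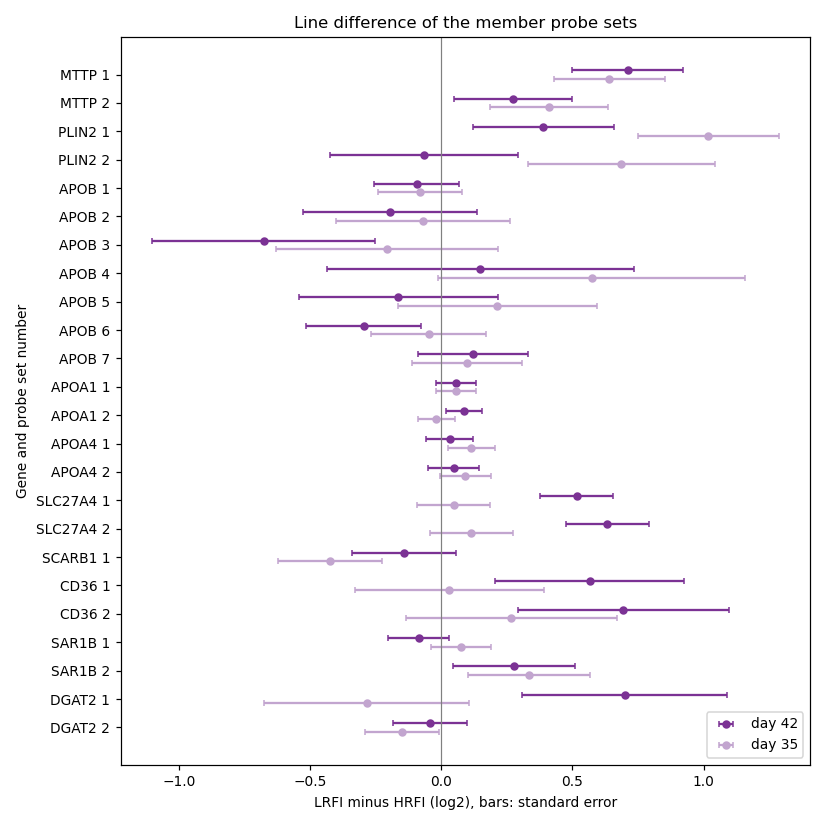
Line difference (LRFI minus HRFI, log2, horizontal axis) of each of the 24 probe sets at day 42 (dark) and day 35 (light), with bars of 1 standard error; the vertical line is no difference. MTTP is to the right at both ages, PLIN2 probe set 1 is farthest right at day 35 (1.02), and SLC27A4 is to the right at day 42 (0.52 and 0.63) and close to 0 at day 35.

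The second comparison asks how the levels differed between day 42 and day 35, and it was not the one the genes were chosen on, although it rests on the same arrays. No member probe set passed, averaged over the lines (0.0026% of all probe sets passed), in LRFI (0.0%) or in HRFI (0.0%). At an unadjusted limma p under 0.05 there were 4 members averaged over the lines, 2 in LRFI and 1 in HRFI, against 11.8%, 9.83% and 8.28% of all probe sets. With unmoderated statistics there were 3, 2 and 0, and none passed after adjustment. Averaged over the lines, 15 of the 24 had a positive difference, against 45.8% of all probe sets.

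SLC27A4 came nearest. Its probe set 1 was higher at day 42 by 0.68 in LRFI (SE 0.14, limma adjusted p = 0.186), without overlap between the ages, and by 0.21 in HRFI (SE 0.14, adjusted p = 0.735). Its probe set 2 differed by 0.57 in LRFI (SE 0.16, adjusted p = 0.289), again without overlap, and by 0.05 in HRFI (SE 0.16, adjusted p = 0.968). In LRFI 2.15% of all probe sets were higher at day 42 without overlap. Averaged over the lines the differences were 0.45 (SE 0.10, limma adjusted p = 0.134, higher than the day 35 mean on 8 of 8 arrays) and 0.31 (SE 0.11, adjusted p = 0.311, 6 of 8 arrays).

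SAR1B probe set 2 differed by 0.48 averaged over the lines (SE 0.16, limma adjusted p = 0.284, 7 of 8 arrays), with 0.45 in LRFI and 0.51 in HRFI. Without the 5 arrays of high actin difference its average was 0.45, with 0.11 in LRFI and 0.79 in HRFI. Probe set 1 of that gene differed by −0.05 (SE 0.08, adjusted p = 0.871). APOB probe set 4 differed by 0.89 (SE 0.41, adjusted p = 0.42), but by −0.04 without the 5 arrays of high actin difference, 4 of which are from day 35.

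MTTP probe set 1 differed between the ages by 0.30 (SE 0.15, adjusted p = 0.464) and probe set 2 by −0.02 (SE 0.16, adjusted p = 0.97). PLIN2 probe set 1 differed by −0.20 in LRFI and 0.43 in HRFI (SE 0.27 each), and probe set 2 by −0.39 in LRFI and 0.37 in HRFI (SE 0.36 each). For APOA1 and APOA4 the 95% intervals of the average age difference lay within −0.22 and 0.09 on all 4 probe sets, which bounds a difference only as far as readings near the top of the range can show one.

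**Figure D5:**
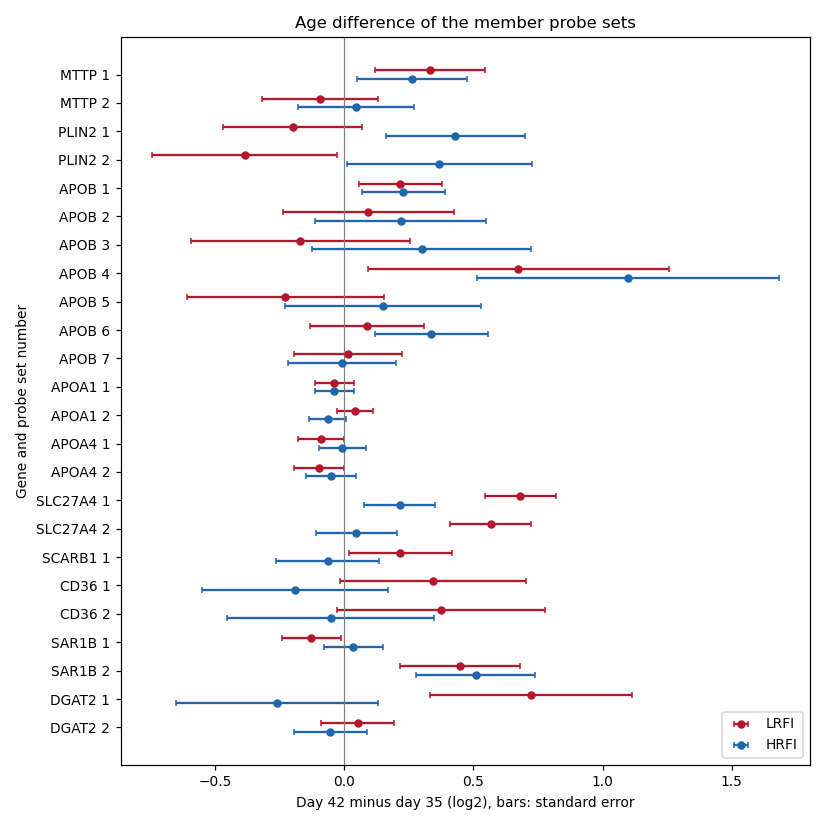
Age difference (day 42 minus day 35, log2, horizontal axis) of each of the 24 probe sets in LRFI (red) and HRFI (blue), with bars of 1 standard error; the vertical line is no difference. SLC27A4 lies to the right in LRFI (0.68 and 0.57), SAR1B probe set 2 to the right in both lines, and PLIN2 to the left in LRFI and to the right in HRFI.

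The third comparison, the interaction, asks whether the line difference at day 42 differed from that at day 35. It is built from line differences that were known when the genes were chosen. Its counts and p-values are therefore a description too. No member probe set passed, where 0.0% of all did, and 2 had an unadjusted limma p under 0.05 (1 with unmoderated statistics), against 6.34% of all probe sets. Those 2 were of SLC27A4, with 0.47 (SE 0.20, limma adjusted p = 0.752) and 0.52 (SE 0.22, adjusted p = 0.763). For PLIN2 the interaction was −0.63 (SE 0.38, adjusted p = 0.821) and −0.75 (SE 0.50, adjusted p = 0.836). For MTTP it was 0.07 (SE 0.30) and −0.14 (SE 0.32), with 95% intervals from −0.57 to 0.71 and from −0.81 to 0.54. The line difference of MTTP was therefore not shown to depend on age. These intervals allow a dependence about as large as the average line difference on probe set 1 and a larger one on probe set 2.

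Levels of the 10 genes were then compared among arrays of the same line and age, with group means removed and 1 probe set per gene, the one of the highest mean. Of 45 gene pairs, 1 had an adjusted permutation p under 0.05. APOA1 and APOA4 correlated at r = 0.86 (permutation p = 0.0004, adjusted p = 0.0202) and rho = 0.79 (permutation p = 0.0027, adjusted p = 0.0612), and r was 0.69 without the 2 farthest arrays. The RefSeq gene table places APOC3 between them, in the order APOA5, APOA4, APOC3, APOA1, and a part of gene position was not tested. Both probe sets read near the top of the range, with a within-group SD of 0.08 for APOA1 and 0.11 for APOA4. APOA1 and APOA4 were both low on HRFI day 35 replicate 3, the array with most pancreatic enzyme RNA. Without the 2 pancreatic arrays no pair passed.

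MTTP and PLIN2 correlated at r = 0.71 (permutation p = 0.0048, adjusted p = 0.0837) and rho = 0.68 (permutation p = 0.0101, adjusted p = 0.151), with r = 0.72 without the 2 farthest arrays. Those 2 were the farthest in MTTP, so HRFI day 35 replicate 3, the lowest array in both genes, was kept. PLIN2 and DGAT2 correlated at r = 0.72 (permutation p = 0.0056, adjusted p = 0.0837) and rho = 0.76 (permutation p = 0.0019, adjusted p = 0.0612), with r = 0.60 without the 2 farthest. With the actin difference, probe set 1 of MTTP, PLIN2 and DGAT2 correlated at r = −0.52, −0.54 and −0.68 (permutation adjusted p = 0.319 each). Probe set 2 of PLIN2 had r = 0.28 with it. The part of RNA quality in the correlations between these genes was not tested. MTTP and APOB, partners in assembly, had r = 0.20 (permutation p = 0.369) and rho = 0.27 (permutation p = 0.334). Between the 10 genes and 11 lists of cell type markers, none of 110 correlations had an adjusted permutation p under 0.05, and the smallest was 0.43, for SLC27A4 with goblet cell genes.

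The named genes most like MTTP probe set 1 over the 16 arrays, by Pearson r of levels with the groups left in, were GSR (0.89), YES1 (0.88), ZZEF1 (0.86), MRGBP (0.85) and ARF1 (0.84). For PLIN2 probe set 1 they were EIF1AX (0.84), CCNG2 (0.81), EXOC6 (0.81), CCDC25 (0.80) and ATRNL1 (0.80). EXOC6 averaged only 2.89 and ATRNL1 4.42, dim readings below the array medians of 5.05 to 5.11. They were taken as the highest among all named probe sets, so the values are a description. The 99th percentile of r over all named probe sets was 0.68 for MTTP and 0.63 for PLIN2.

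Other genes of the pathway were described from 5 lists. Each gene was read on 1 probe set, the one of the highest mean. Some have several (MIA2 and SEC24D 5, MOGAT2 4), and the others are not described here. In none of the lists did a gene so read pass in any of the 7 comparisons, and neither did any of the 13009 named genes so read. Averaged over the lines, 8.15% of the 13009 named genes were higher at day 42 at an unadjusted limma p under 0.05 and 6.94% lower. Averaged over the ages, 2.58% were higher in LRFI at that level and 3.12% lower. The lists' counts are to be read against these shares. Of the 5 arrays of high actin difference 4 are from day 35, and the part of RNA quality in the lists' age differences was not tested. Of 22 measured genes of fatty acid activation and acylglycerol synthesis, 5 were higher at day 42 at an unadjusted limma p under 0.05 averaged over the lines and 0 lower. AGPAT3, which acylates lysophosphatidic acid, differed by 0.34 (SE 0.09, limma adjusted p = 0.173), ACSL3, an acyl-CoA synthetase, by 0.43 (SE 0.14, adjusted p = 0.249) and MOGAT2, which rebuilds diacylglycerol from monoglyceride, by 0.22 (SE 0.08, adjusted p = 0.319). Between the lines 1 of these genes was higher at that level and 0 lower. The largest differences were those of MOGAT1, a monoglyceride acyltransferase, with −0.77 (SE 0.65), ACSL1, an acyl-CoA synthetase, with 0.31 (SE 0.28), and GPAT3, which starts glycerolipid synthesis, with 0.21 (SE 0.08). Among these 3, only GPAT3 was under that level.

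Of 13 measured droplet genes, 3 were higher and 1 lower at day 42 at that unadjusted level. HSD17B13, a droplet enzyme, differed by 0.39 (SE 0.10, limma adjusted p = 0.173), SOAT1, which esterifies cholesterol, by 0.33 (SE 0.11, adjusted p = 0.271) and CIDEC, a droplet fusion protein, by −0.29 (SE 0.11, adjusted p = 0.311). Between the lines 0 of these genes were higher and 3 lower at that level, among them the lipase PNPLA3, with 7.08 in LRFI and 7.32 in HRFI at day 42 and 6.76 in LRFI and 7.15 in HRFI at day 35 (average difference −0.32, SE 0.10). The next largest differences were HSD17B13 with −0.21 (SE 0.10) and SOAT1 with −0.17 (SE 0.11). Neither is among the 3, with an unadjusted limma p of 0.0519 and 0.135.

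Of 14 measured apolipoproteins and particle partners, TM6SF2, which in mammals aids the lipidation of apolipoprotein B, was the 1 gene higher at day 42 at the unadjusted level, by 0.64 (SE 0.15, limma adjusted p = 0.161). It averaged 9.68 in LRFI and 9.55 in HRFI at day 42, and 8.93 in LRFI and 9.01 in HRFI at day 35. The chaperone P4HB, the partner subunit of MTTP, differed by 0.11 (SE 0.06, adjusted p = 0.505) and the lipoprotein receptor VLDLR by −0.20 (SE 0.11, adjusted p = 0.513). Between the lines 1 gene was higher at the unadjusted level and 0 lower. The largest differences were APOH with 0.45 (SE 0.54), APOA2 with 0.40 (SE 0.25) and LPL, lipoprotein lipase, with 0.24 (SE 0.14). None of these was the gene at the unadjusted level. APOH, a plasma protein made by hepatocytes, had an interaction of 2.69 (SE 1.08, adjusted p = 0.741). Its SD was 1.96 in LRFI at day 42 and 1.5 in HRFI at day 35. These groups hold the 2 arrays with the highest hepatocyte mean. APOH is itself 1 of the 9 genes in that mean, and the part of hepatocyte RNA was not tested.

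Of 25 measured genes of vesicle export, 3 were higher and 2 lower at day 42 at the unadjusted level. The coat subunits SEC24C and SEC31A differed by 0.25 each (SE 0.07 and 0.08, limma adjusted p = 0.207 and 0.253) and SEC23B by −0.28 (SE 0.08, adjusted p = 0.173). Between the lines 2 were higher and 0 lower. The largest differences were SEC24B with 0.64 (SE 0.45, with an SD of 2.04 in HRFI at day 35), MIA2 with 0.32 (SE 0.34) and BET1 with 0.31 (SE 0.21). None of these was a gene at the unadjusted level. Of 17 measured transcription factors and coactivators, 1 was higher and 2 were lower at day 42. PPARGC1A, a coactivator of oxidative metabolism, differed by −0.48 (SE 0.17, adjusted p = 0.291), CDX2, an intestinal identity factor, by −0.18 (SE 0.07, adjusted p = 0.363) and NR1H3, the liver X receptor alpha, by 0.17 (SE 0.08, adjusted p = 0.378). Between the lines 2 were higher at the unadjusted level and 0 lower: NR5A2, a nuclear receptor of liver and gut, with 0.43 (SE 0.15), and CREB3L3, which in mice drives apolipoprotein genes, with 0.19 (SE 0.08). PPARGC1A had 0.22 (SE 0.17). For the particle, export and factor lists these counts are within 2 genes of the shares of all named genes.

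The interaction of smallest p in each list was 0.69 for GPAM (SE 0.22, limma adjusted p = 0.714), −0.31 for CIDEA (SE 0.14, adjusted p = 0.763), −0.52 for APOV1 (SE 0.20, adjusted p = 0.731), −0.38 for SEC24D (SE 0.18, adjusted p = 0.789) and 0.37 for RXRA (SE 0.14, adjusted p = 0.733). GPAM starts glycerolipid synthesis at the mitochondrion, CIDEA is a droplet protein, APOV1 is an apolipoprotein of avian egg yolk particles, SEC24D is a coat subunit and RXRA a nuclear receptor. Group means were 3.76 to 4.38 for GPAM and 4.69 to 5.06 for APOV1, dim readings near or below the array medians of 5.05 to 5.11. The median line difference of the 5 lists lay between 0.01 and 0.08, against −0.01 over all probe sets.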

How the data were processed

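The authors deposited 1 log2 value per probe set and array, made with Partek 6.5 and RMA per the submitters' processing notes. RMA subtracts background, gives all arrays 1 distribution and reduces the probes of each set to 1 value. Differences at the dim and the bright end of the array's range may be compressed. Trizol was used for extraction and 6 ug of total RNA for biotin labelling as cRNA, per the labels' protocols. The genome build is not given in the sources used here. The log2 values were used as deposited. Array medians lay between 5.05 and 5.11.

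The 96 control probe sets were left out. Genes were named from the platform annotation, which gave 1 symbol to 27168 probe sets, several to 177 and none to 11094. A RefSeq gene table matched all 10 genes and was used for names and gene order only. Groups came from the labels. limma 3.58.1 in R 4.3.3 (lmFit and eBayes) fitted 1 mean per group to all 16 arrays, with Benjamini-Hochberg adjustment over 38439 probe sets. The fit was also run on simulated data with planted age and interaction differences and independent normal noise. The share of planted differences it recovered is not given here. Correlations used numpy 2.4.6, with group means removed and 100000 two-sided permutations within groups.

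The genes, the lists and the tests were chosen with earlier results of these data known. The rule named every probe set of the 10 genes, the 5 genes most like MTTP and PLIN2, and up to 3 genes per list and comparison by the smallest p (by the largest absolute difference for the lines). Further pathway genes are given as counts. Alternatives were arrays left out, the replicate number as a block, other variance settings, a filter on dim probe sets, median centring, only the arrays compared, and the actin difference as a covariate. The hepatocyte, enterocyte and erythrocyte alternatives were added after seeing the data. Sequences were not analysed here.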

Additional observations from a re-analysis of the deposited data

Results flagged for a closer look

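There were 4 readings of the 10 genes that stood far from the other 3 arrays of their group, by Dixon's criterion at the 95% level. In all, 96 groups of 4 arrays were checked, and chance alone marks about 1 group in 20.

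MTTP probe set 1 read 10.46 on LRFI day 42 replicate 3, while the other 3 LRFI day 42 arrays had 9.91 to 9.97. Both CD36 probe sets were also highest on that array. PLIN2 probe set 1 read 8.27 on HRFI day 35 replicate 3, while the other 3 had 9.10 to 9.23. That array had a pancreatic enzyme mean of 13.91 and an actin difference of 2.07, and the part of either in this reading was not tested.

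APOB probe set 1 read 12.54 on LRFI day 42 replicate 2, while the other 3 had 12.84 to 12.87. That array had a hepatocyte mean of 9.16 and a pancreatic enzyme mean of 11.32. APOB probe set 5 read 8.59 on LRFI day 35 replicate 1, while the other 3 had 6.98 to 7.24.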

How the results depend on the processing

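Over the 7 comparisons the alternatives gave 200 counts of member probe sets that passed, all of them 0, and the smallest adjusted p was 0.09, for SLC27A4 probe set 1 between the ages without HRFI day 35 replicate 2. The numbers at an unadjusted p under 0.05 ranged from 4 to 9 for the lines averaged over ages, 3 to 5 at day 42, 2 to 5 at day 35, 3 to 6 for the ages averaged over lines, 2 to 5 in LRFI, 0 to 2 in HRFI and 0 to 3 for the interaction. The filter on dim probe sets left 22 of the 24. Of 4786 values of single probe sets under alternatives, 317 differed in sign from the original, all for differences that had not passed. Without the 5 arrays of high actin difference, 8 line differences at day 35 moved by more than the spread between arrays: APOB probe sets 1, 2, 3, 6 and 7 (0.22, 0.54, 0.73, 0.40 and 0.56), CD36 (0.70 and 0.93) and SAR1B probe set 2 (0.82). Each line then had 2 arrays at that age. With the erythrocyte mean as a covariate, chosen after seeing the data, the day 35 line difference of DGAT2 probe set 1 moved likewise, to −0.93. Age differences also depended on the arrays of high actin difference. For the APOB probe sets in LRFI they lay between −0.23 and 0.67 with these arrays and between −0.64 and −0.095 without them. In HRFI they lay between −0.01 and 1.10 with them and between −0.07 and 0.66 without.

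The number of correlated gene pairs, 1 of 45, was the least stable result. Leaving out each array in turn gave 0 to 2 pairs. It was 0 with Spearman's rho, 0 without the pancreatic arrays, 0 without the arrays of high actin difference, 0 without the hepatocyte arrays (chosen after seeing the data), and 2 with levels pooled over groups. The cause was not tested, beyond the fewer arrays in each such set.

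The labels number replicates 1 to 4 in each group. With group means removed, same-numbered arrays correlated between −0.31 and 0.33, 6 of 24 pairs above 0.1, and 4 of 16 arrays correlated best with their own number, so the numbers were not taken as pairs. With the replicate number as a block the differences were the same, 0 member probe sets passed, and over all probe sets 19 passed between the ages averaged over lines, against 1 without it, 11 against 0 in HRFI, 1 against 0 for the lines averaged over ages, and 0 against 1 for the lines at day 42. Signal limits what can be seen for APOA1 and APOA4, which read near the top of the range.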
